A study of Mus musculus with 10 samples.

Results

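The 44 genes described here encode factors that make ribosomes and proteins that reside in the nucleolus. They were taken by gene name from a fixed list, and all 44 were present among the 9779 genes that both deposited expression tables hold. The list was chosen with earlier results of these data known, so its shares beside all genes are a description only. RNA was measured in ear skin of C57/Bl6 mice aged 6 to 8 weeks, in 10 libraries and 3 groups. The DMSO group (n = 4) received the solvent DMSO with imiquimod, an activator of Toll-like receptors used to induce a psoriasis-like disease on mouse skin. The other imiquimod group (n = 4) was given benzamil, a relative of amiloride and inhibitor of the epithelial sodium channel (ENaC). Both imiquimod groups were sampled after 6 days of topical treatment. The last group was untreated (n = 2), and no day is given for it. Each sample is labelled ear skin, whereas the series text names back skin for the untreated control, so body site and treatment cannot be told apart in comparisons with untreated skin. The labels do not say that replicates are separate animals, so p-values reflect the spread among these samples, which can be technical. The whole skin was sampled, so fewer cells of a type and less RNA per cell cannot be told apart.

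Ribosomes are built in the nucleolus, where RNA polymerase I transcribes the precursor of the ribosomal RNAs. Small nucleolar ribonucleoproteins (snoRNPs) guide methylation (box C/D class) and pseudouridylation (box H/ACA class) of that precursor, and many assembly factors then fold, cut and export the small (40S) and large (60S) subunits. Demand for ribosomes is high in growing cells, and the transcription factor MYC is a known activator of these genes. In skin, the epidermis thickens and its basal keratinocytes divide faster during psoriasis-like inflammation.

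Promoter windows were read for 38 of the 44 genes from RefSeq (GRCm38.p6, from 250 bases before to 50 bases after each annotated start, 43 windows in all). The E-box CACGTG, the site read by MYC and its relatives, was in 8 windows of 7 genes (Nop2, Utp4, Ltv1, Rpf2, Utp20, Pes1 and Wdr43). That is 18.6% of these windows, against 7.15% of all 32817 windows of 300 bases and 10.5% of the 5269 windows of the genes tested here. The ETS core CCGGAAG, searched on both strands after the E-box had been counted, was in 39.5% of the member windows, 8.86% of all windows and 17.8% of those of tested genes. The E-box reads the same on both strands, and its letters cannot overlap those of the ETS core. The median window of these genes held 22 CpG dinucleotides, against 7 over all windows and 22 over those of tested genes. A match describes letters only. The windows printed are those of Nop10 and Nip7, the genes with the largest falls under benzamil, Utp20, the only gene with a window that fell and holds an E-box, and Wdr43, which holds an E-box and was not called. Capitals mark CACGTG or CCGGAAG on either strand, and all are written along the gene's strand.
Nop10, chr2:112261676-112261975, plus strand: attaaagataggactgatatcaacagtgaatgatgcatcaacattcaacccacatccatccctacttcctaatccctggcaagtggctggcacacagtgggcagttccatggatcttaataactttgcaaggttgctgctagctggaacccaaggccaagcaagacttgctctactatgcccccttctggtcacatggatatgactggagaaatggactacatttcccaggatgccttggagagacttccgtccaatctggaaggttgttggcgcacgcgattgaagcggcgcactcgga
Nip7, chr8:107056627-107056926, plus strand: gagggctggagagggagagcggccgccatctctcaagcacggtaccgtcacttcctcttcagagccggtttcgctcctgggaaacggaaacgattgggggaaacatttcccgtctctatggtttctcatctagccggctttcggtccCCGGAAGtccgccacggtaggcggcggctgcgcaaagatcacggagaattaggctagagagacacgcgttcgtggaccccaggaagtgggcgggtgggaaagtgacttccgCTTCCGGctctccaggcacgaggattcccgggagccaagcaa
Utp20, chr10:88826765-88827064, minus strand: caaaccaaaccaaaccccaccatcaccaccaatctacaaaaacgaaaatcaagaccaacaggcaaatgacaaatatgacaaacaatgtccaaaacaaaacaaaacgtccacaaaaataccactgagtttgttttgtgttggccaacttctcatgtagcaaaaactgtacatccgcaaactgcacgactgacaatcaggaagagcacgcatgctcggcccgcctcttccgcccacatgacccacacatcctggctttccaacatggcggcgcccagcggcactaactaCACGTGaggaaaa
Wdr43, chr17:71615965-71616264, plus strand: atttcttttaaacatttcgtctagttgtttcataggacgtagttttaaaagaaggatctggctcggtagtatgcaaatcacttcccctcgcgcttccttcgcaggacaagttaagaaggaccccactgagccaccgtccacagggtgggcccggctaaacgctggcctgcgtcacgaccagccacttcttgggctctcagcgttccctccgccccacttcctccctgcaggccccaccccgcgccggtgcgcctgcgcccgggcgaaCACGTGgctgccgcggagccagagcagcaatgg

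Levels are given as CPM, read counts relative to library size after scaling by edgeR's trimmed mean of M values (TMM). Libraries held 259262 to 935714 reads in the DMSO group, 138440 to 375455 with benzamil, and 74614 and 71144 in untreated skin. A single read was worth 0.976 CPM in the deepest DMSO library and 14.1 CPM in the shallower untreated library, where 3 reads correspond to 42.4 CPM. The share of ribosomal RNA genes was 22.1% to 28.8% with DMSO, 31.0% to 45.7% with benzamil, and 34.2% and 38.6% in untreated skin. Most of it was the mitochondrial mt-Rnr2, which is not made in the nucleolus. This gene alone took 13.5% to 19.3% with DMSO, 24.0% to 39.6% with benzamil, and 26.3% and 24.2% in untreated skin. Of 3 tested ribosomal RNA genes, 1 was called higher (mt-Rnr2) and 1 lower (Rn18s-rs5) in benzamil over DMSO. The keratinocyte markers summed to 31878 to 40003 CPM in the DMSO group, to 37729 to 41489 with benzamil and to 17928 and 19929 in untreated skin, with all 10 markers detected in each group. None of the 4 endothelial markers had values here, and Thy1 was the only T cell marker with any.

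Summed over the 44 genes, the level was 5653 ± 645 CPM in the DMSO group, 4182 ± 483 CPM with benzamil and 4041 ± 259 CPM in untreated skin (SD). The 4 DMSO libraries lay between 5103 and 6564 CPM. All 4 benzamil libraries were below them, at 3590, 3986, 4566 and 4586 CPM, and so were the untreated libraries, at 4224 and 3859 CPM. Ncl and Npm1 took 33.1% to 45.1% of the reads of these genes in the 10 libraries. Without both, the DMSO libraries held 3170 to 3937 CPM, the benzamil libraries 2097 to 3070 CPM and the untreated libraries 2120 and 2659 CPM. As a share of reads outside ribosomal RNA, the 44 genes took 0.764% to 0.922% in the DMSO group, 0.521% to 0.638% with benzamil and 0.625% to 0.676% in untreated skin. The benzamil group was below the DMSO group on each of these scales.

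**Figure D1:**
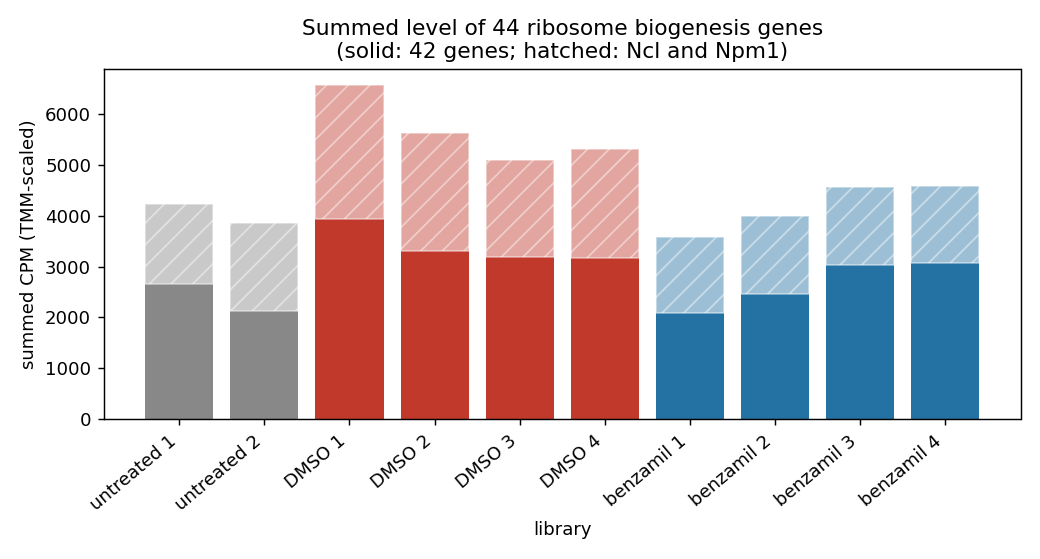
Summed level of the 44 genes in each library, in TMM-scaled CPM. The hatched top of each bar is Ncl and Npm1, and the solid part the other 42 genes. The 4 DMSO bars (5103 to 6564 CPM) stand above the benzamil bars (3590 to 4586 CPM) and the untreated bars (3859 and 4224 CPM).

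Benzamil was compared with DMSO to ask how the channel blocker changed these transcripts in inflamed skin. No gene of the list rose and 10 fell: Nop58, Nop10, Heatr1, Utp20, Rrs1, Nifk, Nip7, Npm1, Ddx21 and Gnl3 (edgeR's quasi-likelihood test, adjusted p under 0.05 over 5245 genes). Of the 44 genes, 33 had enough reads to be tested, and 27 of these 33 had a negative log2 fold change. The median log2 fold change was -0.40, against -0.01 over all tested genes, within a range of -2.09 to 0.69. The 10 called genes are 30.3% of the tested members, beside 12.1% of all tested genes called lower and 9.91% called higher. At an unadjusted p under 0.05 by edgeR, 1 member was higher and 12 were lower. That is 13 of 33 members, beside 1851 of all 5245 tested genes in either direction, which are similar shares. DESeq2 and limma also called 0 members higher, with 11 and 13 of 44 lower. No share over all genes stands beside these 2 counts, so they are a description only. Over all 44 genes, whether tested or not, every benzamil library was below every DMSO library for 16 genes (36.4%), and for 10.5% of all 9779 genes. No member had every benzamil library above every DMSO library.

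The filter on low counts asked for about 34.9 CPM in at least 2 libraries. Of the 33 tested members, 9 reached it in fewer than 2 libraries outside the DMSO group, and Nop10, Heatr1, Rrs1 and Nip7 are among them, so shares of the tested members are a description only. With no filter all 44 genes were tested and 12 were lower, the same 10 with Gar1 and Utp4. With TMM computed without ribosomal RNA genes the same 10 genes were lower. Scaled by total counts alone, which moved the median of all genes to -0.26, 14 were lower. Without benzamil libraries 3 and 4, the shallowest of that group, 8 were lower and 5 of the 10 were shared (Nop58, Heatr1, Utp20, Nifk and Gnl3 were lost). Without benzamil library 1 alone, 6 were lower and Nhp2 was higher.

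Cell type markers moved in the same comparison. The 4 tested neutrophil markers (S100a8, S100a9, Cxcr2 and Il1b) all fell, and the 5 with values summed to 10459 to 17264 CPM with DMSO and 206 to 4063 CPM with benzamil. S100a8 and S100a9 are also made by inflamed keratinocytes, and Csf3r, Ly6g and Mmp9 had no values here. Of 9 tested proliferation genes Cdk1, Ccna2, Pcna and Mcm6 fell, and the summed level of all 10 was 1114 to 1337 CPM with DMSO and 752 to 1097 CPM with benzamil. Of 10 keratinocyte markers Krt15 and Lor rose, of 8 skeletal muscle genes 7 rose, and of 5 tested fibroblast genes Sparc rose. Of 4 sebocyte genes Scd1, Fasn and Elovl6 rose, and the 4 summed to 1474 to 2908 CPM with DMSO and 4182 to 7255 CPM with benzamil. The part of these cell types, of depth and of the ribosomal RNA share in the falls described below was not tested.

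**Figure D2:**
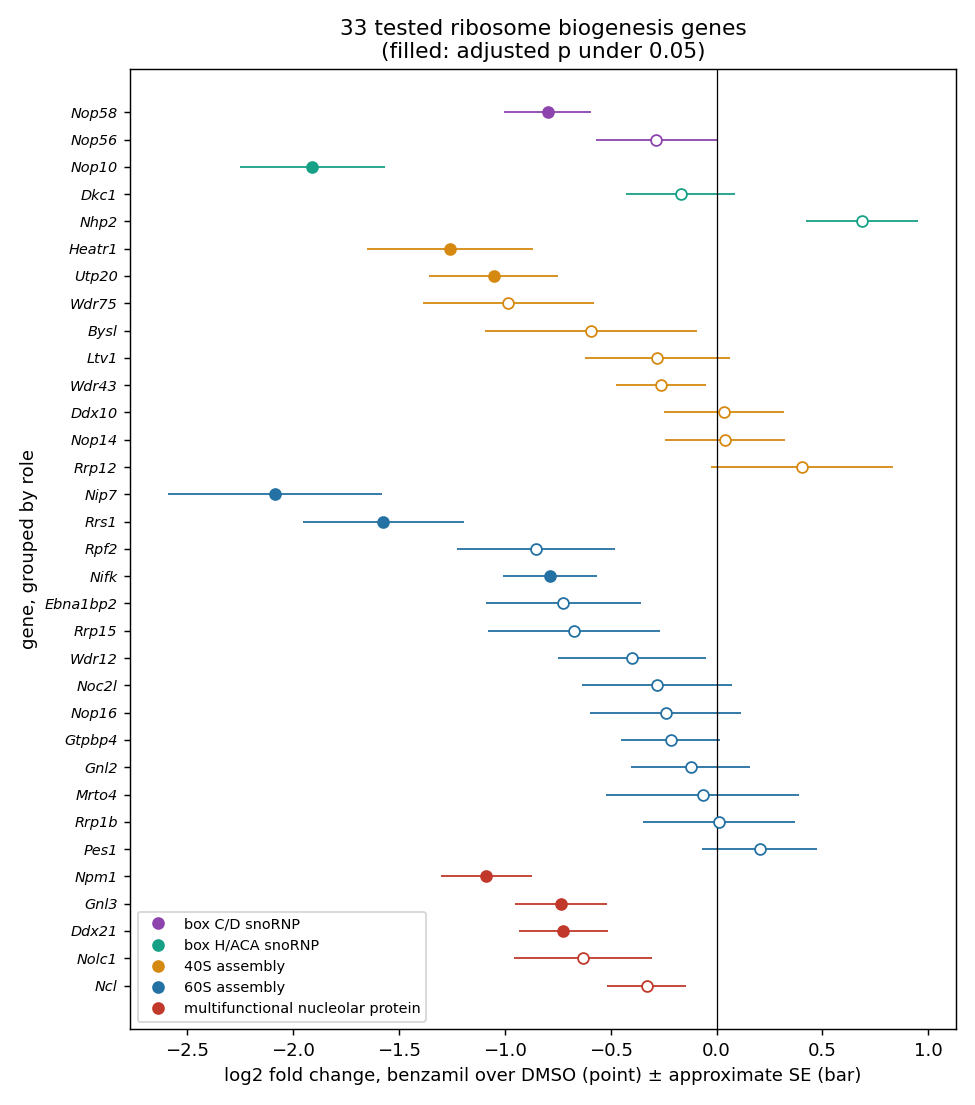
Log2 fold change of benzamil over DMSO for the 33 tested genes, grouped by role, with the approximate standard error from the edgeR fit. Filled points passed an adjusted p of 0.05: 10 genes lie to the left of 0, from -2.09 (Nip7) to -0.72 (Ddx21), and none to the right.

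RNA polymerase I was represented by Polr1b, one of its large catalytic subunits, and Polr1c, a subunit shared with RNA polymerase III. Neither had enough reads to be tested. Polr1b had 0 untreated, 22 DMSO and 2 benzamil reads. The benzamil to DMSO ratio, scaled by depth, was 0.200 (95% interval 0.0228 to 0.814). Polr1c had 1, 64 and 17 reads, a ratio of 0.585 (0.321 to 1.01). These exact intervals cover counting error only.

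Among the box C/D snoRNP proteins, Nop58 fell and Nop56 did not pass the test. Both are core proteins of the particle. Nop58 (chr1:59684971-59719044, plus strand) measured 254 and 396 CPM in untreated skin, 328, 249, 246 and 288 with DMSO, and 139, 193, 167 and 152 with benzamil. All benzamil libraries were below all DMSO libraries, and the untreated libraries lay within the DMSO range or above it. Its log2 fold change was -0.80 ± 0.21 (SE, edgeR's adjusted p = 0.00697). Without benzamil libraries 3 and 4 the adjusted p was 0.0589. Nop56 (chr2:130274430-130279313, plus strand) measured 25.4 and 42.4 CPM in untreated skin, 86.9, 55.9, 62.3 and 57.5 with DMSO, and 57.8, 44.4, 51.4 and 83.4 with benzamil. Benzamil and DMSO libraries overlapped, and the log2 fold change was -0.28 ± 0.29 (SE, edgeR's adjusted p = 0.51). Fibrillarin (Fbl), the methyltransferase of the particle, had 30 DMSO and 2 benzamil reads, a ratio of 0.147 (0.0170 to 0.579). Rrp9, a protein of the U3 snoRNP, had 25 and 4 reads, a ratio of 0.352 (0.0891 to 1.02).

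Of the 4 core proteins of the box H/ACA snoRNP 3 were tested, and Nop10 fell. Nop10 (chr2:112261926-112263269, plus strand) measured 0 and 14.1 CPM in untreated skin, 90.8, 78.8, 83.0 and 57.5 with DMSO, and 23.1, 22.2, 12.9 and 22.7 with benzamil. DMSO and benzamil libraries did not overlap, and the DMSO libraries stood above both other groups. Its log2 fold change under benzamil was -1.91 ± 0.34 (SE, edgeR's adjusted p = 0.000301). Dkc1 (chrX:75095854-75109777, plus strand), the pseudouridine synthase dyskerin, measured 382 and 98.9 CPM in untreated skin, 310.5, 318, 322 and 309 with DMSO, and 182, 216, 424 and 364 with benzamil. The DMSO libraries agreed closely and the benzamil libraries lay on both sides of them, with a log2 fold change of -0.17 ± 0.26 (SE, edgeR's adjusted p = 0.675). Nhp2 (chr11:51619735-51623714, plus strand) measured 115 and 14.1 CPM in untreated skin, 157, 137, 159 and 201 with DMSO, and 171, 257, 225 and 462 with benzamil. Its log2 fold change was positive, at 0.69 ± 0.26 (SE, edgeR's adjusted p = 0.0624), which did not pass. It passed in 5 of 20 alternatives. Among them were the fits without benzamil library 1, at 0.90 with edgeR's adjusted p = 0.0279, and of only the DMSO and benzamil libraries (edgeR's adjusted p = 0.0352). It also passed when either untreated library was left out. Gar1 had too few reads for the test, 71 with DMSO and 5 with benzamil, which is a ratio of 0.155 (0.0489 to 0.379).

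Of 11 factors of 40S assembly, 9 were tested and 2 fell, Heatr1 and Utp20, both large scaffold proteins of the processome that forms on the growing precursor. Heatr1 (chr13:12395027-12440289, plus strand) measured 89.1 and 0 CPM in untreated skin, 68.3, 66.1, 62.3 and 41.8 with DMSO, and 17.4, 31.7, 25.7 and 30.3 with benzamil. Every benzamil library was below every DMSO library, and the untreated libraries lay on both sides of the other groups. Its log2 fold change was -1.26 ± 0.39 (SE, edgeR's adjusted p = 0.0222). The call was lost without DMSO library 1 (adjusted p = 0.0758), DMSO library 2 (0.0521), benzamil library 1 (0.116) or benzamil library 3 (0.0501) in edgeR. Utp20 (chr10:88746607-88826804, minus strand) measured 38.2 and 98.9 CPM in untreated skin, 66.4, 78.8, 79.6 and 86.3 with DMSO, and 28.9, 41.2, 51.4 and 30.3 with benzamil. The benzamil libraries were again all below the DMSO libraries, and the log2 fold change was -1.05 ± 0.30 (SE, edgeR's adjusted p = 0.0147). The call was lost without benzamil library 1 (edgeR's adjusted p = 0.081).

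The other 40S factors did not pass. Wdr43 (chr17:71615895-71659031, plus strand), which works with Heatr1 in the processome, measured 267 and 127 CPM in untreated skin, 223, 219, 215 and 214 with DMSO, and 153, 165, 186 and 258 with benzamil. Of its 4 benzamil libraries 3 were below the DMSO libraries and library 4 was above, with a log2 fold change of -0.26 ± 0.21 (SE, edgeR's adjusted p = 0.398). Ddx10 (chr9:53098635-53248053, minus strand), an RNA helicase, measured 76.3 and 127 CPM in untreated skin, 102, 48.3, 65.7 and 86.3 with DMSO, and 98.3, 66.6, 103 and 53.1 with benzamil. The groups overlapped throughout, and the log2 fold change was 0.04 ± 0.28 (SE, edgeR's adjusted p = 0.951). Utp4, a further partner of Heatr1, had 78 DMSO and 7 benzamil reads, a ratio of 0.198 (0.0769 to 0.427). Nob1, the nuclease that makes the end of the mature small-subunit RNA, had 42 and 8 reads, a ratio of 0.419 (0.170 to 0.904).

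Of 18 factors of 60S assembly, 14 were tested and Rrs1, Nifk and Nip7 fell. Rrs1 (chr1:9545408-9547455, plus strand), which brings the 5S RNA particle to the large subunit with Rpf2, measured 0 and 14.1 CPM in untreated skin, 79.1, 94.1, 55.4 and 57.5 with DMSO, and 31.8, 6.34, 32.2 and 37.9 with benzamil. The DMSO libraries stood above both other groups, and the log2 fold change under benzamil was -1.57 ± 0.38 (SE, edgeR's adjusted p = 0.00453). Nip7 (chr8:107056877-107060931, plus strand), a factor of precursor processing, measured 0 and 14.1 CPM in untreated skin, 44.9, 58.5, 38.1 and 18.3 with DMSO, and 11.6, 9.51, 6.43 and 7.58 with benzamil. Its benzamil values rest on 9 reads in all and were below each DMSO value, with a log2 fold change of -2.09 ± 0.51 (SE, edgeR's adjusted p = 0.00453). Nifk (chr1:118321839-118333822, plus strand), a nucleolar partner of the proliferation marker Ki-67, measured 102 and 198 CPM in untreated skin, 184, 165, 145 and 175 with DMSO, and 116, 92.0, 83.6 and 98.5 with benzamil. DMSO and benzamil libraries did not overlap, whereas untreated library 1 lay within the benzamil range and untreated library 2 above all DMSO libraries. The log2 fold change was -0.79 ± 0.22 (SE, edgeR's adjusted p = 0.0128). Without benzamil libraries 3 and 4 the adjusted p of Nifk was 0.104 in edgeR. Gtpbp4 (chr13:8966331-8996083, minus strand), a GTPase of the early 60S particle, measured 254 and 56.5 CPM in untreated skin, 279, 239, 190.3 and 191 with DMSO, and 176, 219, 199 and 205 with benzamil. Its groups overlapped, with a log2 fold change of -0.22 ± 0.23 (SE, edgeR's adjusted p = 0.543), and the annotation holds 7 pseudogenes named after it that could share its reads.

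Of the 60S factors 4 had too few reads for the test. Bop1, which forms the PeBoW complex with Pes1 and Wdr12, had 47 DMSO and 16 benzamil reads, a ratio of 0.750 (0.397 to 1.35). Nop2, a methyltransferase of the large-subunit RNA, had 48 and 11 reads, a ratio of 0.505 (0.236 to 0.985). Noc3l had 58 and 18 reads, a ratio of 0.683 (0.379 to 1.18). The helicase Ddx18 had 29 and 6 reads, a ratio of 0.456 (0.155 to 1.12). All 11 untested members of the whole list had a ratio under 1, and for 6 of them the interval lay entirely under 1. Of the 4534 untested genes of both tables the ratio was under 1 for 58.1% and the interval entirely under 1 for 12.0%.

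Among 5 multifunctional nucleolar proteins, Npm1, Ddx21 and Gnl3 fell, while Ncl and Nolc1 did not pass. Npm1 (chr11:33152287-33163206, minus strand), nucleophosmin, a chaperone that organises the outer layer of the nucleolus, measured 331 and 735 CPM in untreated skin, 1052, 1048, 740.4 and 789.8 with DMSO, and 474, 482, 405 and 356 with benzamil. The lowest DMSO library was well above the highest benzamil library, and the log2 fold change was -1.09 ± 0.21 (SE, edgeR's adjusted p = 0.000795). Ddx21 (chr10:62580251-62602281, minus strand), a helicase linking polymerase I and II transcription, measured 229 and 283 CPM in untreated skin, 425, 285, 280.2 and 298 with DMSO, and 156, 187, 232 and 250.2 with benzamil. DMSO library 1 stood above the other 3, and DMSO and benzamil libraries did not overlap. Untreated library 1 lay within the benzamil range and untreated library 2 within the DMSO range. The log2 fold change of Ddx21 was -0.72 ± 0.21 (SE, edgeR's adjusted p = 0.0152), and the call was lost without DMSO library 1 (edgeR's adjusted p = 0.0888) or benzamil library 1 (0.0899).

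Gnl3 (chr14:31012433-31019152, minus strand), nucleostemin, a GTPase of dividing progenitor cells, measured 102 and 84.8 CPM in untreated skin, 252, 186, 215 and 178 with DMSO, and 95.5, 155, 129 and 136 with benzamil. All benzamil libraries were below all DMSO libraries, and the log2 fold change was -0.73 ± 0.22 (SE, edgeR's adjusted p = 0.017). The call was lost without DMSO library 1 (edgeR's adjusted p = 0.0818), without benzamil library 1 (0.101), or without benzamil libraries 3 and 4 (0.0781). Ncl (chr1:86344719-86359400, minus strand), nucleolin, a binder of the precursor RNA, measured 1234 and 1004 CPM in untreated skin, 1576, 1284, 1166 and 1355 with DMSO, and 1018, 1053, 1132 and 1159.8 with benzamil. DMSO and benzamil libraries lay next to each other without overlap, with untreated library 1 inside the DMSO range and untreated library 2 below all benzamil libraries. The log2 fold change was -0.33 ± 0.19 (SE, edgeR's adjusted p = 0.211). Scaled by total counts alone it was -0.60 with edgeR's adjusted p = 0.0331.

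The 16 tested members not given by library had log2 fold changes from -0.98 (Wdr75) to 0.40 (Rrp12) under benzamil, with edgeR's adjusted p of 0.0806 or higher. Their mean levels ran from 21.4 to 96.6 CPM with benzamil and from 23.7 to 96.8 CPM with DMSO. The calls of Nop10, Rrs1 and Npm1 held in every alternative setting, and that of Nip7 in each of the 18 that tested it. Nip7 was not tested where edgeR fitted only the DMSO and benzamil libraries. All alternatives reuse the same libraries. Nop10, Rrs1 and Nip7 also reached the count filter in fewer than 2 libraries outside the DMSO group, so this is a description only. By library, 32, 27, 23 and 25 of the 44 genes were below the lowest DMSO library in benzamil libraries 1 to 4, and 0, 2, 9 and 9 were above the highest. Over all genes those shares were 29.3%, 29.4%, 36.8% and 37.6% below, and 25.6%, 25.6%, 29.4% and 29.0% above. Benzamil library 1 had the most genes of the list below DMSO and none above. In the authors' deposited table of benzamil over DMSO, 40 of the 44 genes had an adjusted p, and 12 of them were called lower and 0 higher. Of the 7555 genes with an adjusted p in that authors' deposited table, 6.43% were called lower and 4.96% higher.

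**Figure D3:**
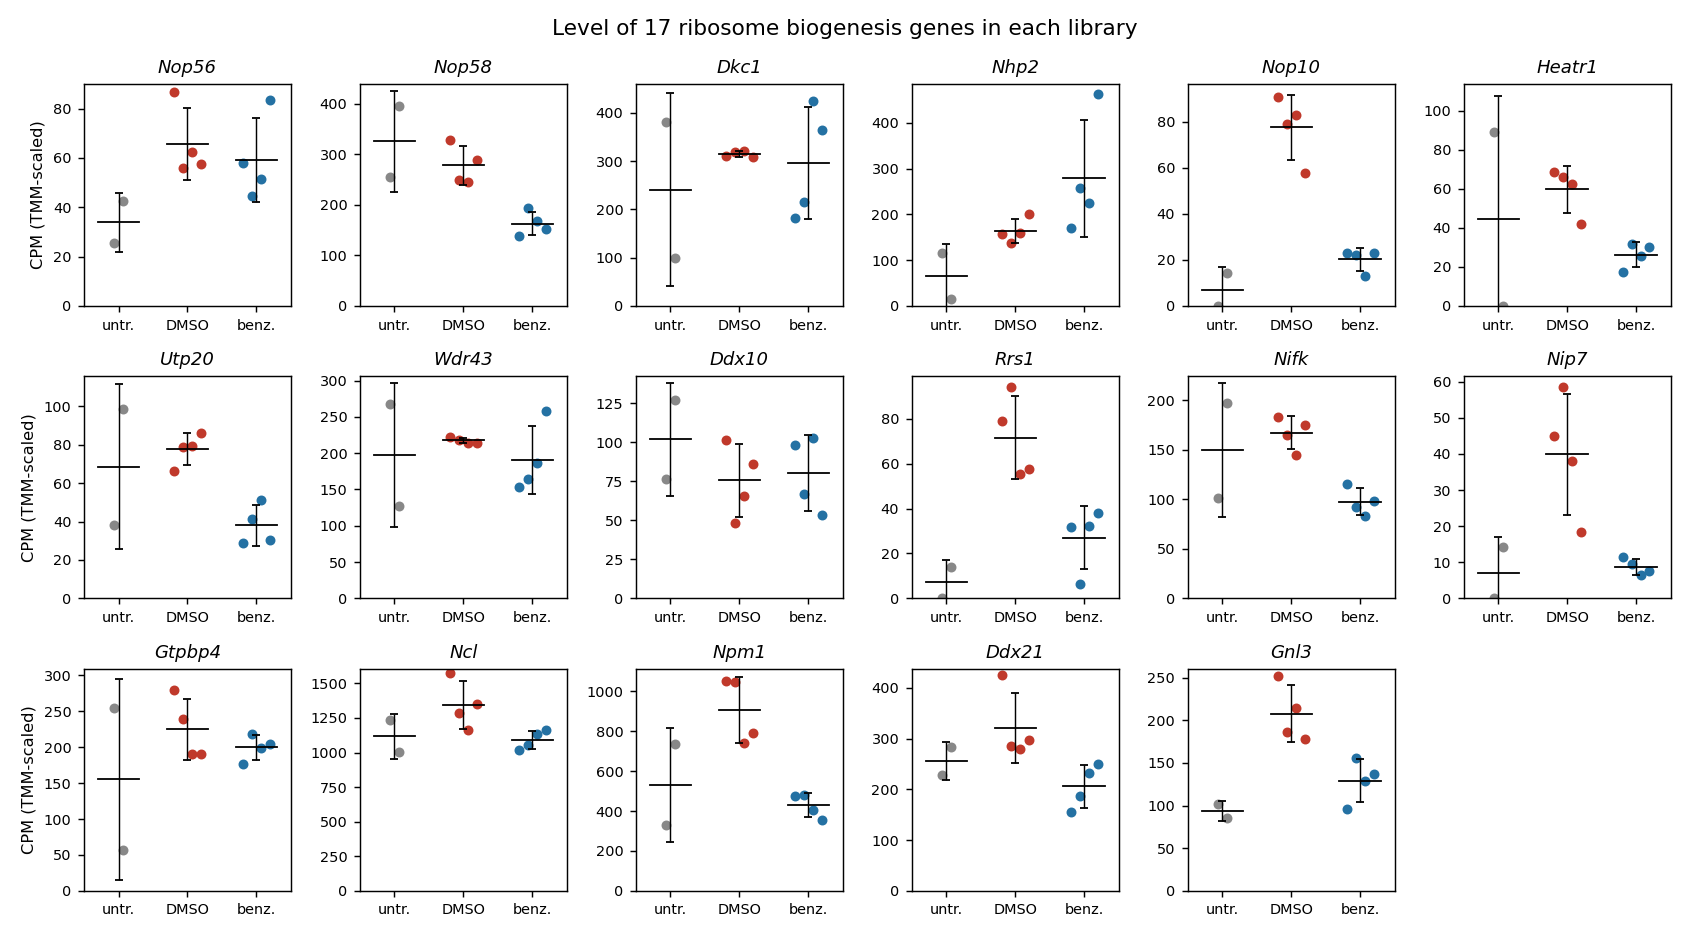
Level of the 17 genes given by library, in TMM-scaled CPM, with each library as a point, the group mean as a line and the SD as a bar. The benzamil points of Npm1 (356 to 482 CPM) lie below its DMSO points, whereas those of Nhp2 (171 to 462 CPM) overlap or exceed them.

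DMSO with imiquimod was compared with untreated skin to ask how inflammation changed the same genes. It shares its DMSO libraries with the comparison above, so the values are given side by side and not as separate support. Nop10, Rrs1 and Gnl3 rose and no member fell, which is 9.09% of the 33 tested genes, beside 9.93% of all tested genes called higher and 8.45% called lower. The members' share was close to that of all genes. The median log2 fold change was 0.53, against 0.18 over all tested genes, and 25 of 33 members were positive. At an unadjusted p under 0.05 by edgeR, 8 members were higher and 0 lower. That is 8 of 33, a smaller share than the 1746 of 5245 tested genes that passed in either direction. Every DMSO library was above every untreated library for 18 of the 44 genes (40.9%) and for 30.8% of all 9779 genes. The depth of untreated skin limits this comparison: 5 members had 0 reads there, and 19 had at most 3.

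Nop10 rose by a log2 fold change of 3.49 ± 0.89 (SE, edgeR's adjusted p = 0.00796), but untreated skin held 1 read of it, and the read ratio was 12.2 with a 95% interval of 2.15 to 483. Rrs1 rose by 3.38 ± 1.03 (SE, edgeR's adjusted p = 0.0232), also against 1 untreated read, with a read ratio of 11.2 (1.97 to 443). Both calls were lost without untreated library 1 (edgeR's adjusted p = 0.109 for Nop10 and 0.171 for Rrs1) and in DESeq2 (adjusted p = 0.0948 and 0.111). Gnl3 rose by 1.17 ± 0.39 (SE, edgeR's adjusted p = 0.0348), against 14 untreated reads. This call was lost without DMSO library 1 (edgeR's adjusted p = 0.0759), untreated library 1 (0.105) or untreated library 2 (0.125), and in DESeq2 (0.0701). Without untreated library 1 none of the 3 remained called. Npm1 was higher in every DMSO library than in both untreated libraries, with a log2 fold change of 0.80 ± 0.29 (SE, edgeR's adjusted p = 0.0587). Gar1 had 0 untreated reads against 71 with DMSO, which is 1.69-fold with a floor of 3 reads set for both untreated libraries. The lower 95% limit of the read ratio of Gar1 was 1.34. Bop1 also had 0 untreated reads, against 47 with DMSO, and the lower 95% limit of its read ratio was 0.876. In DESeq2 no member was called, and limma on the deposited log2 values called 12 of 44 higher. The limma count over all genes is given with the dependence on processing.

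Of the other genes that fell under benzamil none passed between DMSO and untreated skin. Nop58 had a log2 fold change of -0.19 ± 0.28 (SE, edgeR's adjusted p = 0.665), Utp20 of 0.20 ± 0.49 (SE, edgeR's adjusted p = 0.807), Nifk of 0.20 ± 0.34 (SE, edgeR's adjusted p = 0.713) and Ddx21 of 0.37 ± 0.31 (SE, edgeR's adjusted p = 0.427). Heatr1 was at 0.39 ± 0.64 (SE, edgeR's adjusted p = 0.706) and Nip7 at 2.55 ± 1.13 (SE, edgeR's adjusted p = 0.112), each with few untreated reads. For Nop58 the untreated libraries, at 254 and 396 CPM, were above every benzamil library. In the same comparison the 4 tested neutrophil markers rose, the 5 tested fibroblast markers and 7 of 8 muscle markers fell, and 6 of 9 proliferation genes rose. Of the keratinocyte markers Krt5, Krt14, Krt1 and Krt10 rose and Krt15 fell, and their sums, given above, were higher with DMSO. The sebocyte genes Scd1 and Elovl6 fell, as did Dct, the only melanocyte marker with values, and Thy1 (log2 fold changes of -1.73, -0.98, -3.71 and -1.02). Summed proliferation genes were 452 and 471 CPM in untreated skin, where 5 of the 10 had 0 reads. Their part in the rises of Nop10, Rrs1 and Gnl3 was not tested.

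Benzamil was also compared directly with untreated skin. Nhp2 was the only member called, with a log2 fold change of 1.99 ± 0.53 (SE, edgeR's adjusted p = 0.0339), and no member was lower. Of all tested genes 2.44% were called higher and 1.56% lower. At an unadjusted p under 0.05 by edgeR, 1 member was higher and 1 lower. That is 2 of 33, a smaller share than the 992 of 5245 tested genes that passed in either direction. The members' median was 0.26 and that of all tested genes 0.17. Nhp2 measured 115 and 14.1 CPM in untreated skin against 171 to 462 CPM with benzamil. Its call was lost without benzamil library 4 (edgeR's adjusted p = 0.0556) and without untreated library 2 (0.223, log2 fold change 1.29). It was also lost with total counts alone (0.072) and without benzamil libraries 3 and 4 (0.073). Nop58 was lower at -0.99 ± 0.30 (SE, edgeR's adjusted p = 0.0576), which did not pass.

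The other genes of ribosome production were counted from lists written by role, with 159 genes measured and 100 tested. These lists too were chosen with earlier results of these data known. Genes could also pass the count filter through DMSO libraries alone, so shares and calls of these lists are a description only. Under benzamil 11 fell and 0 rose, which is 11 of 100 beside 12.1% of all tested genes called lower. The median log2 fold change of the 100 was -0.45. At an unadjusted p under 0.05 by edgeR, 21 were lower and 0 higher, beside 1851 of 5245 tested genes in either direction. Of the 159 measured, DESeq2 and limma called 8 and 14 lower and 0 higher. In DMSO over untreated 8 rose and 1 fell, beside 9.93% of all tested genes called higher and 8.45% called lower, with a median of 0.57. There DESeq2 called 2 of the 159 higher and limma 46. The limma count over all genes is given with the dependence on processing. Of 11 tested genes of the RNA polymerase I machinery none passed under benzamil (2 were lower at an unadjusted p under 0.05 by edgeR), and Polr1d, a shared polymerase I and III subunit, rose in DMSO over untreated by 2.07 ± 0.63 (edgeR's adjusted p = 0.0235). The call of Polr1d was lost without untreated library 1 (edgeR's adjusted p = 0.125) or 2 (0.0809), and in DESeq2. Of the 2 tested snoRNP assembly factors none passed in either comparison, at an unadjusted p under 0.05 either.

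Of 32 other 40S factors 5 fell under benzamil, beside 12.1% of all tested genes called lower. Emg1, a methyltransferase of the small-subunit RNA, fell by 2.11 on the log2 scale (SE 0.48, edgeR's adjusted p = 0.00258). Pno1, the partner of Nob1, fell by 1.74 (SE 0.36, 0.00105), from 74.8 ± 14.3 to 19.6 ± 12.1 CPM (SD, n = 4). That benzamil mean was under the 34.9 CPM of the count filter. Nol11, a partner of Heatr1, fell by 1.11 (SE 0.29, 0.00782). Utp18 and Tsr1 were the others. In DMSO over untreated Pno1 rose, with a read ratio of 11.6 (2.05 to 460) against 1 untreated read. Its call was lost without untreated library 1 (edgeR's adjusted p = 0.137) and in DESeq2. Nol11 rose by 1.71 ± 0.61 (edgeR's adjusted p = 0.0499). That call was lost in 13 of 20 alternatives, with edgeR's adjusted p up to 0.212, among them the omission of DMSO library 1 or 2, of untreated library 1 or 2, or of any benzamil library. Its fall under benzamil was lost without benzamil libraries 3 and 4 (edgeR's adjusted p = 0.0606). Fcf1, a factor of the processome, fell by 1.62 (SE 0.35, edgeR's adjusted p = 0.00204), from 268 ± 179 CPM in untreated skin (n = 2) to 88.2 ± 7.88 CPM (n = 4). Without untreated library 1 its log2 fold change was -0.58 (edgeR's adjusted p = 0.443).

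Of 40 other 60S factors 5 fell under benzamil, a share close to the 12.1% of all tested genes called lower. Mybbp1a, a nucleolar MYB-binding protein, fell by 0.96 on the log2 scale (SE 0.23, edgeR's adjusted p = 0.00393), Rsl1d1 by 0.77 (SE 0.22, 0.0123) and Nmd3, the export adaptor of the 60S subunit, by 1.17 (SE 0.36, 0.0216). Brix1 and Npm3 were the others. The call of Brix1 was lost in 6 of 20 alternatives: without DMSO library 1 or 2, benzamil library 1 or 4, or benzamil libraries 3 and 4 together (edgeR's adjusted p up to 0.135), and in DESeq2. The call of Nmd3 was lost without DMSO library 1, benzamil library 2 or 4, or benzamil libraries 3 and 4 (edgeR's adjusted p up to 0.156), and that of Rsl1d1 without benzamil libraries 3 and 4 (0.135). In DMSO over untreated Brix1, Nop53, Rsl1d1 and Eif6 rose. Nop53, which hands the precursor to the exosome, rose by 1.46 ± 0.38 (edgeR's adjusted p = 0.00838) and Eif6, which keeps the subunits apart, by 1.74 ± 0.49 (0.0139). Brix1 had 2 untreated reads and a read ratio of 5.18 (1.41 to 43.2). Without untreated library 1 the calls of Brix1, Nop53, Rsl1d1 and Eif6 were all lost (edgeR's adjusted p of 0.133, 0.0576, 0.111 and 0.179). That of Brix1 was also lost without untreated library 2 and in DESeq2. The call of Rsl1d1 was lost in 9 of 20 alternatives, among them the omission of DMSO library 1, 2 or 4, benzamil library 1 or untreated library 2 (edgeR's adjusted p up to 0.147). Nop53 was also the only gene of these lists called in benzamil over untreated, a call lost without untreated library 1 (edgeR's adjusted p = 0.0789) or 2 (0.0827). In the exosome and ribonuclease MRP list of 15 tested genes, Exosc7 fell under benzamil by 2.39 (SE 0.50, edgeR's adjusted p = 0.00129). Exosc8 had 0 untreated reads and was 1.84-fold higher with DMSO when a floor of 3 untreated reads was set, counting error aside. It was called higher (edgeR's adjusted p = 0.0325), a call lost without untreated library 1 (0.143) or 2 (0.105), and in DESeq2.

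The ribosomal proteins themselves numbered 80, with 75 tested. Under benzamil 31 fell, with a median log2 fold change of -0.58 over the list, and Rps20, Rps14 and Rpl26 were among those that rose. In DMSO over untreated 5 rose (Rpl35, Rpl7a, Rpl39, Rps2 and Rpl9) and 3 fell (Rpl26, Rps20 and Rpl13), with a median of 0.61. Many ribosomal protein genes have processed copies, and how such reads were counted is not given in the sources used here.

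**Figure D4:**
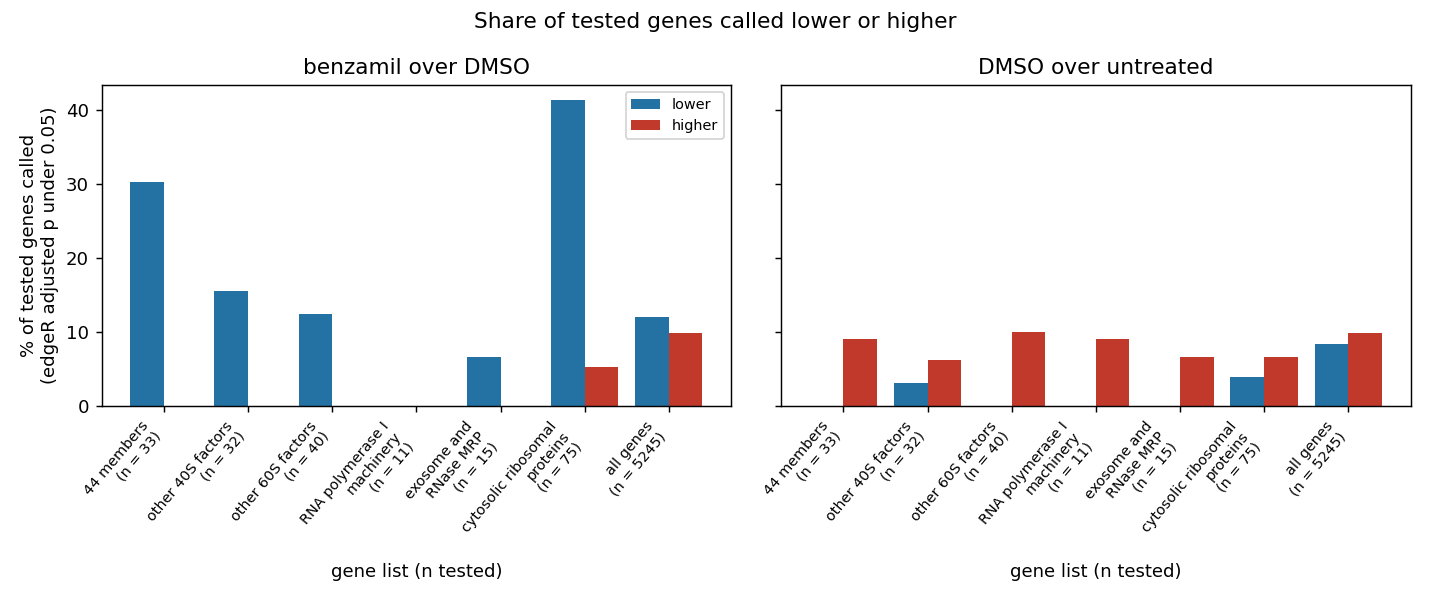
Share of tested genes called lower or higher in each list, in percent, with the number tested under each label, for benzamil over DMSO (left) and DMSO over untreated (right). Under benzamil 10 of 33 members, 11 of the 100 other genes of ribosome production and 31 of 75 ribosomal protein genes were lower, beside 12.1% of all genes.

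Regulators of ribosome production were mostly at low levels. Myc had 0 reads in untreated skin and averaged 20.9 ± 6.54 CPM with DMSO and 4.86 ± 4.02 CPM with benzamil (SD, n = 4), too few for the test. The lower 95% limit of its read ratio of DMSO over untreated was 0.934. Eif4ebp1, a translation repressor controlled by mTOR, averaged 20.7 ± 6.94 and 5.72 ± 4.11 CPM, also with 0 untreated reads. For Myc and Eif4ebp1 no interval of benzamil over DMSO is given, so those differences are a description only. Mtor, Rptor and Mycl were not tested either. Max, Mnt, Mxi1 and Rps6kb1 passed in neither comparison. Mxd1, a MAX partner that opposes MYC, rose in DMSO over untreated with a read ratio of 11.6 (2.05 to 460), and Rheb, an activator of mTOR, with a read ratio of 4.46 (1.5 to 21.8). The call of Mxd1 was lost without untreated library 1 (edgeR's adjusted p = 0.171) and in DESeq2. That of Rheb was lost in 8 of 20 alternatives, among them the omission of untreated library 1 (edgeR's adjusted p = 0.303), DMSO library 1, 2 or 4, or benzamil libraries 3 and 4. Neither Mxd1 nor Rheb passed under benzamil, where Mxd1 was at -0.17 ± 0.31 and Rheb at -0.44 ± 0.29.

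Of the 10 genes that fell, 8 have a promoter window in the table used, where Utp20 holds CACGTG and Nip7 and Heatr1 hold CCGGAAG. In GENCODE M21, 6 of the 44 genes hold snoRNA genes on their own strand within their bounds, 19 in all: Nop56 (5), Nop58 (4), Wdr43 (3), Ncl (3), Gnl3 (3) and Dkc1 (1). Nop58 and Gnl3 among these 6 fell, with a median log2 fold change of -0.31 for the 6. Of the other 38 genes 27 were tested and 8 fell, with a median of -0.59. Whether a snoRNA's own reads could be counted to its host gene is not given in the sources used here. Among the 17 genes given by library, Nop56, Dkc1, Nhp2, Heatr1, Wdr43, Ddx10, Gtpbp4 and Gnl3 overlap a gene on the other strand in the same annotation, and whether reads were counted by strand is not given either, so reads of such pairs cannot be told apart.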

How the data were processed

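RNA was extracted from ear skin in 10 samples and made into 3' mRNA libraries with unique molecular identifiers from 500 ng of RNA, per the labels' protocols. STAR, featureCounts and DESeq2 with mm10 were used, per the submitters' processing notes. The sources used here do not give their versions, the use of strand, or whether identifiers were collapsed. The authors deposited log2 values, named as variance-stabilised, in a table of benzamil and DMSO libraries (10653 genes) and a table of untreated and DMSO libraries (9820 genes), each normalized on its own. They also deposited DESeq2 results with a mean signal, a log2 fold change, a score (the Wald statistic), and raw and adjusted p-values. A further table the authors deposited holds counts per gene under human identifiers (0 of 61533 are mouse) and entered no comparison.

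The log2 values were inverted into whole reads. In every library 100% of values were whole within 0.001 reads, and the DMSO reads were equal between the tables in 39116 of 39116 cases. The inversion returned 40000 of 40000 values on simulated data. The 9779 genes in both tables entered 1 edgeR fit (version 4.0.16, R 4.3.3) of all 10 libraries with 1 mean for each group, scaled by TMM, after filterByExpr (minimum count 10, minimum total 15), which kept 5245 genes. edgeR's quasi-likelihood test was adjusted by Benjamini-Hochberg over all of them, with calls at 0.05. Standard errors are the log2 fold change divided by the root of the test's F value and are approximate. On simulated counts for benzamil over DMSO (4659 genes), 38 of 41 genes at a log2 fold change of -2 and 17 of 43 at -1 were called, and 5 of 4477 unchanged genes.

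The members and the lists of other genes were chosen with earlier results of these data known. Values by library are given for each member called in any comparison and for the 2 tested members per role with the highest mean CPM. Of other lists, up to 3 called genes with the smallest adjusted p per comparison are described, all listed regulators are, and the remaining called genes are named where few. DESeq2 1.42.0 and limma 3.58.1 were alternatives. Coordinates are from GENCODE M21 (mm10).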

Additional observations from a re-analysis of the deposited data

Results flagged for a closer look

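Groups of 4 libraries were searched for a sample far from the other 3, over the genes given by library and 2 sums, 38 groups in all. Chance alone marks about 1 in 20 such groups, and 3 were found. Nop10 was at 12.9 CPM in benzamil library 3, where the other benzamil libraries held 22.2 to 23.1 CPM. Ddx21 was at 425 CPM in DMSO library 1, where the other DMSO libraries held 280.2 to 298 CPM. The summed level without Ncl and Npm1 was 3937 CPM in DMSO library 1 and 3170 to 3298 CPM in the others. That library was also the deepest, with 935714 reads.

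The deposited count table under human identifiers lists all 44 symbols in their human spelling. Its counts under them ran from 28 (untreated library 2) to 793 (DMSO library 1), which is 0.320% to 0.579% of each library's counts and above the limit of 3 counts that a count of 0 allows. The samples are mouse skin, so these counts were used in no comparison.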

How the results depend on the processing

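Alternatives to the benzamil over DMSO comparison left 6 to 12 members lower and 0 or 1 higher when 1 library at a time was left out. Without benzamil library 1 there were 6 lower and Nhp2 was higher. Nhp2 was also the 1 higher member without untreated library 1 or 2, with only the libraries of both groups and with all genes of their own table. All genes called higher were 248 with total counts alone, 327 in DESeq2 and 284 without both of the shallowest benzamil libraries, a setting chosen after seeing the data, and 291 to 632 without 1 library. All genes called lower were 1009, 300 and 356 to 799 with total counts alone, without the shallowest libraries and without 1 library. In DMSO over untreated, members higher were 5 with no filter, 0 in DESeq2, 12 with limma and 2 to 4 without 1 library. All genes higher were 316 in DESeq2, 2369 with limma and 225 to 532 without 1 library, and all genes lower 208 to 448. In benzamil over untreated, members higher were 0 with total counts alone, with the replicate block, with only both groups' libraries and without the shallowest libraries, and 0 or 1 without 1 library. Members lower were 1 (Nop58) with DESeq2 size factors, total counts alone or DESeq2. All genes higher were 63 with total counts, 200 with no filter, 84 with the replicate block, 77 with only both groups' libraries and 63 to 141 without 1 library. All genes lower were 43 without the shallowest libraries and 36 to 92 without 1 library. The log2 fold change of Ddx10 turned sign to -0.021 (DESeq2 size factors), -0.23 (total counts), -0.0071 (no filter) and -0.024 (DESeq2) and ran from -0.12 to 0.27 without 1 library, and that of Dkc1 from -0.41 to 0.043. The causes were not tested. Of the limma calls in DMSO over untreated, the 12 were of 44 members and the 2369 of 9820 genes.

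Labels number the replicates alike in each group. Same-numbered DMSO and benzamil libraries had correlations of their deviations from 0.000688 to 0.0686. Those of DMSO and benzamil libraries with different numbers ran from -0.129 to 0.170. Counting error weakens such correlations where genes have few reads, so they cannot tell whether the numbers mark a pairing. With the number as a replicate block the same 10 members were lower under benzamil and 0 higher, and 3 were higher in DMSO over untreated, where Npm1 took the place of Gnl3 (edgeR's adjusted p = 0.05).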

Other observations

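Small nucleolar RNAs that the assembly factors act with were looked at after the values of the tables had been seen, and 26 such genes and snoRNA host genes had reads. Only Snord13 and Snhg3 among them were called in any comparison, but many of the others had too few reads for the test. Among those untested, Snhg6 had 54 DMSO and 6 benzamil reads, a ratio of 0.245 (0.0860 to 0.568). Scarna17 went the other way, with 23 and 23 reads, a ratio of 2.20 (1.18 to 4.11). Of all tested genes 12.1% were called lower and 9.91% higher in benzamil over DMSO. Snord13, a guide for acetylation of the small-subunit RNA that is transcribed from its own promoter, rose under benzamil. It measured 1730.4 and 819.8 CPM in untreated skin, 136, 313, 259 and 279.8 CPM with DMSO, and 1096, 843, 1228 and 1266 CPM with benzamil. Every DMSO library was below every library of the other groups. The ribosomal RNA share, given above, was also lowest with DMSO, and its part was not tested. How this short RNA entered 3' mRNA libraries is not given in the sources used here. Its log2 fold change was 2.16 ± 0.25 in benzamil over DMSO (edgeR's adjusted p = 3.21e-06) and -2.39 ± 0.30 in DMSO over untreated (edgeR's adjusted p = 5.42e-06). Snhg3, a host of H/ACA snoRNAs, measured 12.7 and 0 CPM in untreated skin, 84.0, 68.6, 79.6 and 68.0 CPM with DMSO, and 26.0, 15.9, 6.43 and 30.3 CPM with benzamil. It fell under benzamil by 1.93 on the log2 scale (SE 0.36, edgeR's adjusted p = 0.000394). In DMSO over untreated Snhg3 rose by 3.44 ± 0.92 (edgeR's adjusted p = 0.0107), against 1 untreated read. That call was lost in 2 of 20 alternatives. In every library outside the DMSO group Snhg3 was below the 34.9 CPM of the count filter, so both calls are a description only. Both comparisons share their DMSO libraries.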
